A study of Homo sapiens with 6 samples.

Results

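The genes described here are 39 members of the NF-kB system, listed by name: the subunits of the transcription factor, the IkB proteins that hold or assist it, the kinases and the TRAF and ubiquitin regulators above it, and a group of its known target genes. Of the 39 members, 34 could be read from 82 probe sets annotated to that gene alone, out of 19775 such genes and 54613 tested probe sets on the array. The probe sets of BCL3, ZC3H12A and NUAK2, 4 in number, carry a second gene symbol and were kept apart from the counts, and BIRC3 and TRAF2 were not analysed here. RNA of NCI-H226, an established human mesothelioma cell line, was hybridized to Affymetrix U133 Plus 2.0 arrays to ask how gene expression in tumor spheroids differs from that in flat cultures. The 3 monolayer samples grew attached to plastic in RPMI 1640 with fetal bovine serum. The 3 spheroid samples, of the same line, were started with 10000 cells per well in suspension plates coated with poly-HEMA, a polymer to which cells do not stick, were spun down to bring the cells together, and were kept for 24 hours. No genetic modification or drug treatment is described for either group. Before plating, the spheroid cells had been grown to near confluency and separated into single cells with Accutase. Shape, coating, dissociation, centrifugation and time in culture cannot be told apart in this design. All values come from 1 cell line.

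NF-kB is a family of dimeric transcription factors that IkB proteins keep inactive, mostly in the cytoplasm. In the canonical pathway, receptors for TNF, interleukin 1 or microbial products build chains of ubiquitin that recruit the IkB kinase complex, which marks IkB for destruction and frees the dimer, and in the non-canonical pathway the kinase encoded by MAP3K14 drives the processing of the NFKB2 precursor. Several of the genes that NF-kB turns on encode its own inhibitors, among them NFKBIA and TNFAIP3, so that the system feeds back on itself, and in mesothelial cells it is known for driving the expression of chemokines and adhesion molecules during inflammation.

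A signal is the linear MAS5 intensity of a probe set, a group of short probes that read the same transcript. A log2 fold change is the difference between the mean log2 signals of spheroids and monolayers after each array was centred on its median. A probe set counts as upregulated or downregulated (called) when its limma p, adjusted by Benjamini-Hochberg over all 54613 probe sets, is under 0.05, and a gene is read by its brightest probe set. Arrays are given in the order monolayer 1, 2 and 3 and spheroid 1, 2 and 3. Where groups are said not to overlap, this refers to the centred values.

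Among the 34 members, 10 were upregulated in spheroids, 2 were downregulated and 22 were not called by limma. The 10 upregulated genes make 29.4% of the members, where 3.88% of all genes were called in that direction, and the 2 downregulated genes make 5.88%, where 9.22% of all genes were. The upregulated members were the IkB genes NFKBIZ and NFKBIA, the kinases MAP3K8 and IRAK2, the regulators TNFAIP3 and TNIP1, and the targets TNFAIP2, IER3, TNFAIP8 and ICAM1. The downregulated ones were the kinase MAP3K14 and the target CD83. The median log2 fold change of the members was 0.35, against -0.06 over all genes. Over the 82 probe sets, 18 were upregulated, with 2.78% of all probe sets called higher, and 2 were downregulated, with 6.65% of all called lower. In 14 members every spheroid lay above every monolayer (11.7% of all genes), and in 3 every spheroid lay below (20.6% of all genes). Without centring, the values lie 0.15 higher in spheroids on the log2 scale and gave 14 upregulated members and 1 downregulated, where 6.76% and 7.58% of all genes were called, and after quantile normalization 15 and 1, where 6.57% and 7.63% of all genes were. With 3 arrays a group the count depended on the variance model, however: limma without the trend and the methods' t-test each called 2 members upregulated, NFKBIZ and MAP3K8, and 0 downregulated. Of all genes the former called 0.435% higher and 0.718% lower, and the latter 0.662% and 2.65%. At an unadjusted limma p under 0.05, 16 members were higher and 3 lower, against 9.62% and 17.9% of all genes. Monolayer 1 stood apart from the other monolayers in some genes, such as the mesothelial marker CALB2 (1582 against 163 and 83.6). There spheroid 1 was also the highest spheroid (2238 against 1317 and 1765). Without monolayer 1, 10 members were upregulated and 1 downregulated. In a bulk culture, fewer cells with a transcript and less transcript per cell cannot be told apart.

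**Figure D1:**
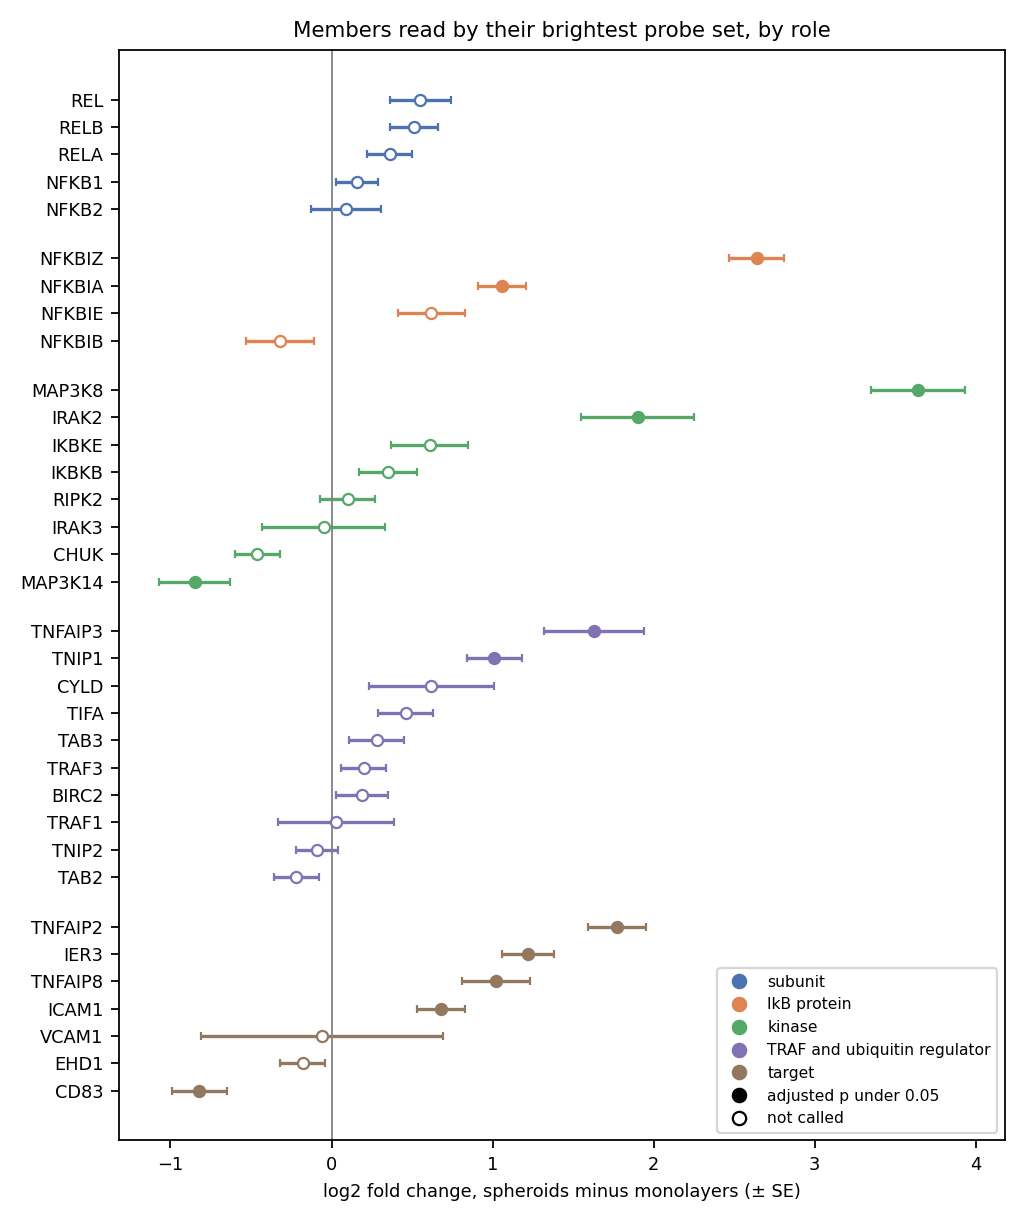
Log2 fold change of each of the 34 members (spheroids minus monolayers, centred log2 signal of the brightest probe set), with bars of 1 standard error, grouped by role and with filled points for an adjusted p under 0.05. The filled points reach from -0.85 for MAP3K14 to 3.64 for MAP3K8, and the 5 subunits lie between 0.09 and 0.55 with open points.

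The subunits, which form the DNA-binding dimers, stood to the right of 0 without passing the test. None of the 5 was called from its brightest probe set by limma (0 higher and 0 lower, against 3.88% and 9.22% of all genes). The methods' t-test called 0 as well, and 3 were higher at an unadjusted limma p under 0.05 (9.62% of all genes). RELA encodes the subunit of the classical dimer that activates transcription. Its signals were 404, 519 and 536 in monolayers and 663, 783 and 623 in spheroids (log2 fold change 0.36 ± 0.14 SE, limma adjusted p = 0.164). NFKB1, its usual partner, read 591, 656 and 670 against 703, 857 and 811 (log2 fold change 0.16 ± 0.13 SE, limma adjusted p = 0.536). The RELA groups did not overlap, whereas those of NFKB1 did once the arrays were centred. RELB, the partner of the processed NFKB2 product in the non-canonical pathway, had signals of 146, 196 and 181 in monolayers and 261, 288 and 272 in spheroids (log2 fold change 0.51 ± 0.15 SE, limma adjusted p = 0.0734). NFKB2 itself read 64.8, 48.7 and 78 against 67.7, 76 and 78.7 (log2 fold change 0.09 ± 0.22 SE), and turned to -0.09 without monolayer 2. The NFKB2 groups therefore overlapped and the RELB groups did not. REL, the subunit best known from lymphocytes, gave 100, 147 and 113 against 209, 179 and 192 at its brightest probe set (log2 fold change 0.55 ± 0.19 SE, limma adjusted p = 0.122).

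REL was the subunit with a called probe set. At its second brightest, 228812_at, signals were 97.5, 122 and 93.8 in monolayers and 240, 182 and 197 in spheroids (log2 fold change 0.84 ± 0.20 SE, limma adjusted p = 0.0293), and every spheroid exceeded every monolayer. All 5 REL probe sets had a log2 fold change above 0, from 0.46 to 0.84, and the other 4 were not called. The call at 228812_at ended without monolayer 2 or 3 and without spheroid 1 or 3. It also ended in limma without the trend and with the methods' t-test. Over the 12 probe sets of the subunits the log2 fold changes were all above 0, from 0.09 to 1.41, with 1 called. The 1.41 came from a very dim NFKB2 probe set, 211524_at, which was not called (SE 0.79, limma adjusted p = 0.349). It read 0.772, 1.52 and 1.27 against 6.02, 5.85 and 1.08, where the 20th percentile of all signals was 3.11. The subunit calls depended on the scaling: as deposited, without centring, the brightest probe sets of REL and RELB were called upregulated, and after quantile normalization RELA was as well.

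The IkB proteins differed among themselves. NFKBIZ and NFKBIA were upregulated in spheroids, NFKBIE was not called, and NFKBIB pointed down without a call. NFKBIZ encodes a nuclear IkB protein that, unlike the cytoplasmic inhibitors, assists transcription of a secondary set of inflammatory genes. Its signals were 340, 378 and 270 in monolayers and 2181, 2170 and 2409 in spheroids, a rise of 6.24-fold (log2 fold change 2.64 ± 0.17 SE, limma adjusted p = 2.95e-04). The groups lay far apart, with the lowest spheroid several times the highest monolayer. Its other probe set, 223217_s_at, read 105, 180 and 103 against 1077, 923 and 1126 (log2 fold change 2.91 ± 0.24 SE, limma adjusted p = 5.58e-04). Both were called under every alternative that was run, with log2 fold changes from 2.50 to 2.79 and from 2.77 to 3.17.

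The promoter of NFKBIZ is shown because its log2 fold change was, after that of MAP3K8, the largest in size among the called members with a probe set of 1 symbol. This gene also had the smallest adjusted p of the members. The window holds the 250 bases before the first of its annotated starts, at chr3:101827740-101827989 on the + strand (RefSeq, GRCh38.p14), with capitals at a match to the NF-kB consensus.
NFKBIZ start 1: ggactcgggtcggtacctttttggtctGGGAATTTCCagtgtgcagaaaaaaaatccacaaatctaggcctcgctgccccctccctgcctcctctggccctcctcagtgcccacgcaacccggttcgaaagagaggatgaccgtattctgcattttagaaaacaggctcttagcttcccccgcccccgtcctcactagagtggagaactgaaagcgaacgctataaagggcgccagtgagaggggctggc

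NFKBIA encodes the best-studied cytoplasmic inhibitor, which NF-kB itself induces within minutes to hours. Its signals were 927, 1241 and 1027 in monolayers and 2432, 2466 and 2397 in spheroids, a rise of 2.08-fold (log2 fold change 1.06 ± 0.15 SE, limma adjusted p = 0.00306). The 3 spheroids were nearly equal (SD 34.5) and all lay above the monolayers. A second NFKBIA probe set lay, on each array, below the median of that array and showed no call (log2 fold change 0.27). When a gene was read by the mean of all its probe sets, NFKBIA was no longer called. NFKBIE, another cytoplasmic inhibitor, read 222, 382 and 347 against 553, 491 and 537 without overlap (log2 fold change 0.62 ± 0.21 SE, limma adjusted p = 0.115), and it was called upregulated as deposited and after quantile normalization. NFKBIB, the third of that kind, read 67.8, 69.8 and 58.3 against 61.6, 50.6 and 61 (log2 fold change -0.32 ± 0.21 SE, limma adjusted p = 0.433), and its 3 probe sets all had log2 fold changes below 0, from -0.34 to -0.20. BCL3, a nuclear IkB protein that binds dimers without a transactivation domain, shares its 2 probe sets with the symbol of a microRNA gene, MIR8085. The brighter of them read 156 ± 28.4 against 253 ± 27.4 (SD, n = 3) and was not called (log2 fold change 0.56 ± 0.19 SE, limma adjusted p = 0.116).

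The kinases held both the largest rise and 1 of the 2 falls among the members. MAP3K8 encodes a kinase that is kept in check by the unprocessed NFKB1 protein and starts the MEK and ERK cascade when released. Its signals were 41.3, 29.4 and 20 in monolayers and 494, 332 and 386 in spheroids, a rise of 12.5-fold (log2 fold change 3.64 ± 0.29 SE, limma adjusted p = 5.57e-04). Every spheroid stood far above every monolayer, and the monolayer signals were still above the array medians of 14.6 to 14.7. The second MAP3K8 probe set was dim, at 12.2, 3.58 and 5.49 against 19.8, 8.47 and 7.73, and was not called (log2 fold change 0.67). The call at the brighter one held under all alternatives that were run, with log2 fold changes from 3.37 to 3.89.

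MAP3K8 is shown as the member with the largest change. Its window lies before the first annotated start, at chr10:30433771-30434020 on the + strand (RefSeq, GRCh38.p14), with capitals at a consensus match.
MAP3K8 start 1: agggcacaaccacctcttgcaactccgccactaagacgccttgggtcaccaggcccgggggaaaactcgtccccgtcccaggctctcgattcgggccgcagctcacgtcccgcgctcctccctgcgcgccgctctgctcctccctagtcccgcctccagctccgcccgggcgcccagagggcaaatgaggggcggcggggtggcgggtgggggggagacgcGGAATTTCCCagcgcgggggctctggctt

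IRAK2, a kinase-like mediator of interleukin 1 and Toll-like receptor signaling, read 121, 308 and 334 in monolayers and 759, 1027 and 1120 in spheroids, a rise of 3.73-fold (log2 fold change 1.90 ± 0.35 SE, limma adjusted p = 0.0112). The groups did not overlap, and monolayer 1 stood below the other monolayers. Without monolayer 1 the log2 fold change was 1.43 and the call held, while without spheroid 2 or spheroid 3 the call ended. The other IRAK2 probe sets were dimmer and not called, with log2 fold changes of 1.15 and -0.82, and with all probe sets averaged IRAK2 was not called. IRAK3, which restrains the same receptors, was near the array median and was not called (15.5 ± 2.79 against 17.1 ± 6.69, SD, n = 3), with a log2 fold change of -0.05 whose sign changed with the scaling and with single arrays. MAP3K14, the kinase of the non-canonical pathway, fell. Its signals were 200, 175 and 201 in monolayers and 160, 117 and 86.9 in spheroids (log2 fold change -0.85 ± 0.22 SE, limma adjusted p = 0.0432). The groups did not overlap, but the call was close to the threshold. It ended as deposited, after quantile normalization, with a floor under dim signals, and without any single array other than spheroid 1, while the log2 fold change stayed between -1.10 and -0.68.

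The catalytic subunits of the IkB kinase complex showed no call. CHUK read 400, 399 and 408 in monolayers and 339, 312 and 318 in spheroids (log2 fold change -0.46 ± 0.14 SE, limma adjusted p = 0.0683), with every spheroid below every monolayer, and was called downregulated when the test was limited to probe sets above the median level. IKBKB pointed the other way at its brightest probe set, with a log2 fold change of 0.35 and overlapping groups (limma adjusted p = 0.296). That value was 0.16 without monolayer 1, and the dimmer IKBKB probe sets stood at -0.05 and 0.10. For IKBKE, a related kinase of antiviral signaling, the log2 fold change was 0.61 (limma adjusted p = 0.165), and for RIPK2, the kinase below the NOD receptors, it was 0.10 (limma adjusted p = 0.801). The difference in direction between CHUK and IKBKB was not tested. NUAK2, an AMPK-related kinase, was read by a probe set shared with AKIP1, at 466 ± 75.5 against 372 ± 31.9 (SD, n = 3; log2 fold change -0.46, limma adjusted p = 0.148).

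**Figure D2:**
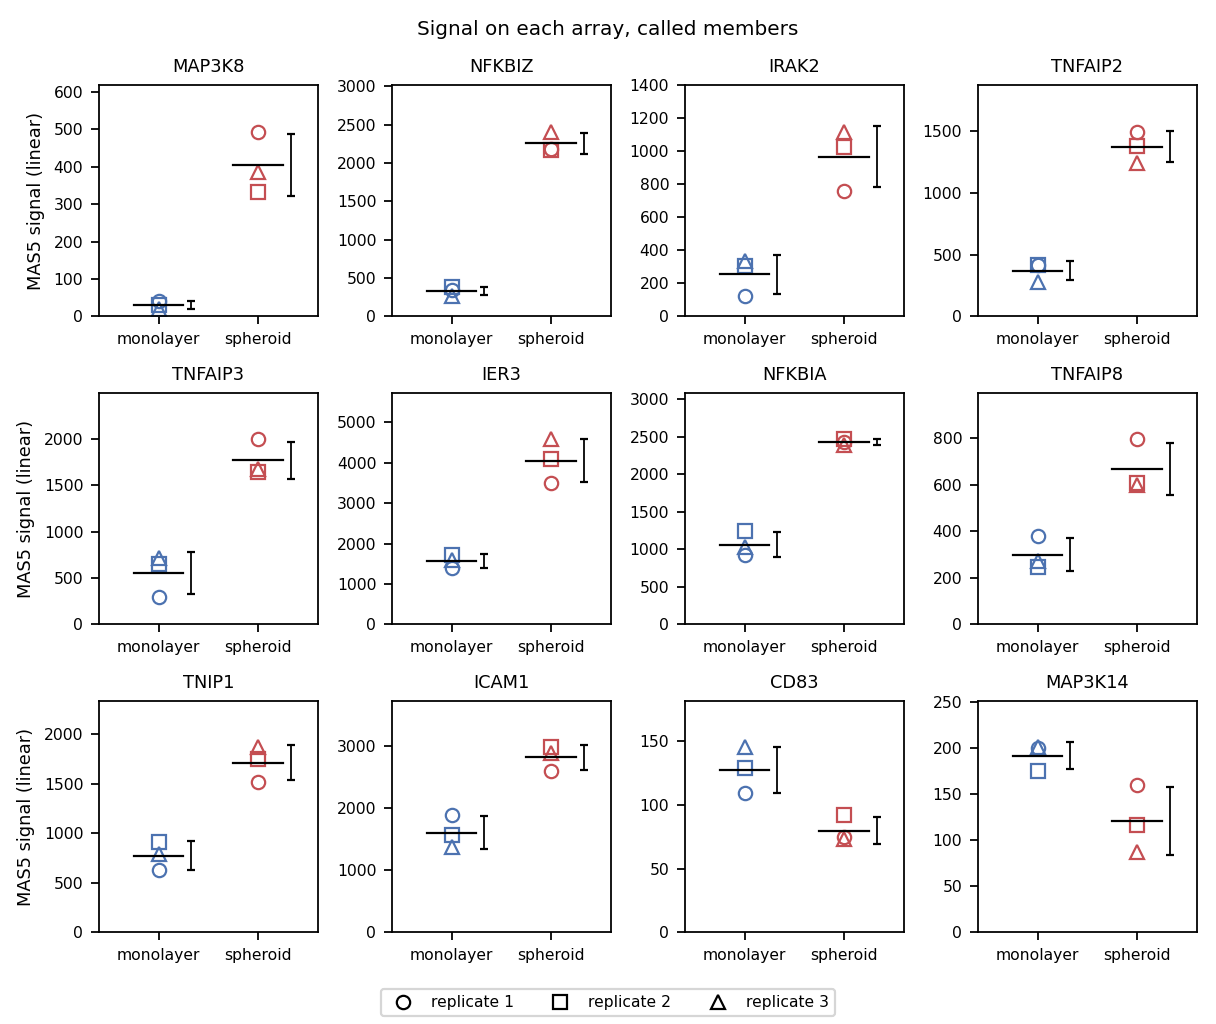
Linear MAS5 signal on each of the 6 arrays for the 12 called members at their brightest probe sets, with a line at the group mean, a bar of ± 1 SD beside it (n = 3) and 1 marker shape per replicate number; each panel starts at 0 and has its own scale. In all panels the groups are separate, with spheroids above monolayers for the 10 upregulated genes and below them for CD83 and MAP3K14.

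Of the 10 TRAF and ubiquitin regulators, 2 were upregulated and 0 downregulated, where 3.88% and 9.22% of all genes were. In the downward direction 0 had an unadjusted limma p under 0.05, against 17.9% of all genes. Both upregulated genes belong to the brake on the pathway. TNFAIP3 encodes an enzyme that trims and rebuilds ubiquitin chains to end signaling, and is a classical NF-kB target. Its signals were 290, 650 and 717 in monolayers and 1993, 1639 and 1670 in spheroids, a rise of 3.1-fold (log2 fold change 1.63 ± 0.31 SE, limma adjusted p = 0.0125). Its second probe set gave the same log2 fold change of 1.63 (SE 0.38, limma adjusted p = 0.0282). Monolayer 1 was again below the other monolayers. Without it the log2 fold changes were 1.22 and 1.11 and both calls held, while both ended without spheroid 3 and that of the second probe set also without spheroid 1 or 2. TNIP1, the partner that brings the TNFAIP3 protein to ubiquitin chains, read 626, 911 and 789 against 1521, 1748 and 1869 (2.01-fold, log2 fold change 1.01 ± 0.17 SE, limma adjusted p = 0.00732). All spheroids lay above all monolayers, and the call held when any 1 array was left out. A second TNIP1 probe set was below the array medians on nearly all arrays and was not called (log2 fold change -0.92), and with all probe sets averaged TNIP1 was not called either.

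CYLD, a deubiquitinase that removes the chains on which the pathway runs, depended on the probe set. At its brightest, 221903_s_at, monolayers read 240, 681 and 800 and spheroids 711, 912 and 992, which was not called (log2 fold change 0.62 ± 0.39 SE, limma adjusted p = 0.412), and without monolayer 1 the log2 fold change was 0.08. The next 3 probe sets in brightness were all upregulated. These were 213295_at, at 216, 361 and 270 against 913, 763 and 750 (log2 fold change 1.40, limma adjusted p = 0.00382), 221905_at, at 105, 202 and 155 against 429, 461 and 458 (1.45, adjusted p = 0.00513), and 39582_at, at 119, 158 and 172 against 432, 440 and 378 (1.34, adjusted p = 0.0019). At each of them every spheroid was above every monolayer, and the calls held with any 1 array left out. All 3 calls ended in limma without the trend and with the methods' t-test. With all probe sets averaged CYLD was not called. The remaining 3 probe sets were dimmer and not called, with log2 fold changes of 0.22, -0.20 and 0.89. Which transcripts of CYLD each probe set reads was not tested.

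**Figure D3:**
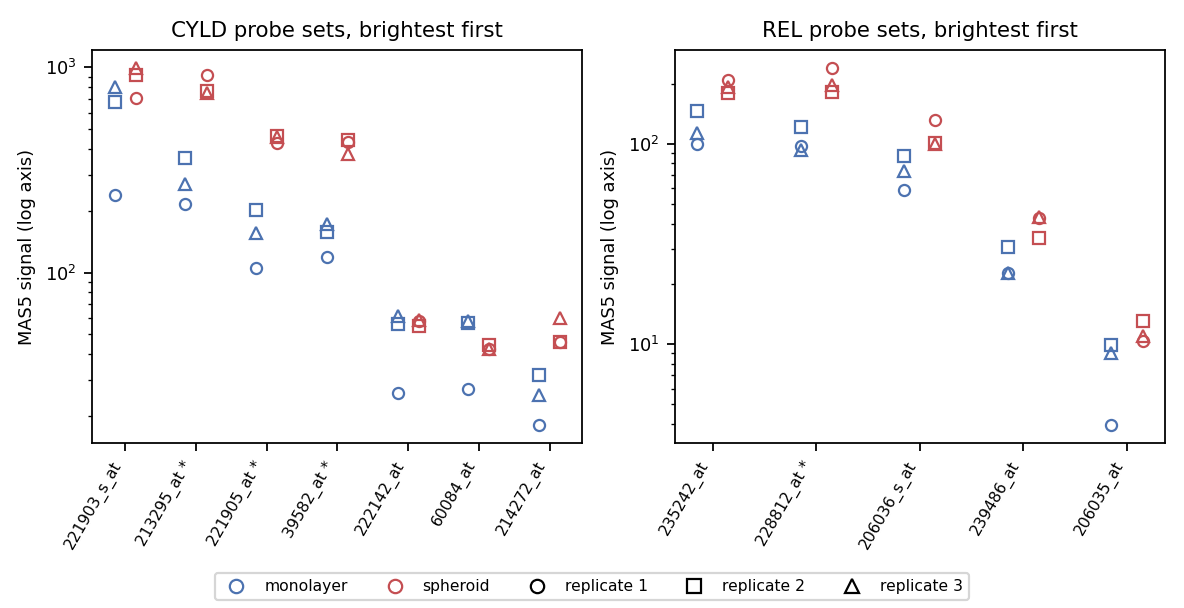
MAS5 signal (log axis) on each array at the 7 CYLD and the 5 REL probe sets, ordered from brightest to dimmest, with blue for monolayers, red for spheroids, a marker shape per replicate number and an asterisk for an adjusted p under 0.05. At the brightest CYLD probe set monolayer 1 lies at 240 while the other monolayers reach 681 and 800, and at the next 3 the groups are apart.

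The other 7 regulators were not called. BIRC2, a ubiquitin ligase that holds MAP3K14 protein low, read 1507 ± 245 against 1887 ± 151 (SD, n = 3; log2 fold change 0.19). TRAF3, its adaptor in that task, had a log2 fold change of 0.20, and TRAF1, an adaptor that NF-kB induces in lymphocytes, one of 0.03 that was -0.43 without monolayer 1 and -0.04 without spheroid 2. The ubiquitin-binding adaptors TAB2 and TAB3 stood at -0.22 and 0.28, and TNIP2, a further partner of the TNFAIP3 protein, at -0.09 with all 3 probe sets below 0. TIFA, an adaptor that assembles TRAF proteins, came nearest to the threshold among these, at 671 ± 44.1 against 1025 ± 147 (log2 fold change 0.46, limma adjusted p = 0.15), and it was called upregulated as deposited, after quantile normalization and without spheroid 2.

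Of the 7 targets, 4 were upregulated (57.1%) and 1 downregulated (14.3%), where 3.88% and 9.22% of all genes were. IER3, an immediate early gene of stress and survival signaling, read 1391, 1720 and 1602 in monolayers and 3496, 4099 and 4579 in spheroids, a rise of 2.33-fold (log2 fold change 1.22 ± 0.16 SE, limma adjusted p = 0.00235). TNFAIP2, a TNF-induced protein of membrane protrusions, read 417, 414 and 279 against 1498, 1377 and 1247 (3.4-fold, log2 fold change 1.77 ± 0.18 SE, limma adjusted p = 9.97e-04). For both genes the groups were well apart and the calls held with any 1 array left out. The dim second TNFAIP2 probe set rose too, from 5.58 ± 1.69 to 29.3 ± 2.66 (SD, n = 3; log2 fold change 2.28, limma adjusted p = 0.0086). TNFAIP8, a TNF-induced protein linked to cell survival, read 381, 247 and 271 against 794, 607 and 597 (2.03-fold, log2 fold change 1.02 ± 0.21 SE, limma adjusted p = 0.0163). Its second probe set was upregulated by 0.97 on the log2 scale (limma adjusted p = 0.0231), and the third had 1.20 without a call (adjusted p = 0.0771).

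ICAM1, the adhesion molecule that binds leukocyte integrins, read 1887, 1560 and 1367 in monolayers and 2595, 2978 and 2891 in spheroids, a rise of 1.6-fold (log2 fold change 0.68 ± 0.15 SE, limma adjusted p = 0.0245). All 3 ICAM1 probe sets had spheroids above monolayers, though the others missed the threshold, with log2 fold changes of 0.59 and 0.55 (limma adjusted p = 0.074 and 0.0537). The calls of ICAM1 and of TNFAIP8 ended without monolayer 2, monolayer 3, spheroid 1 or spheroid 3. CD83, a surface protein of activated dendritic and lymphoid cells, fell from 109, 129 and 145 to 74.4, 91.9 and 72.8 (log2 fold change -0.82 ± 0.17 SE, limma adjusted p = 0.0165). The groups did not overlap, but the call ended without monolayer 2, monolayer 3 or spheroid 3. VCAM1, the endothelial adhesion molecule for lymphocytes and monocytes, was at 4.25 ± 2.5 against 4.76 ± 3.06 (SD, n = 3), close to the 20th percentile of all signals at 3.11, and its sign changed with the scaling and with single arrays. EHD1, a protein of endocytic recycling, was not called at any of its 5 probe sets, whose log2 fold changes ran from -0.57 to -0.14. At 3 of them the unadjusted limma p was under 0.05, and at 2 every spheroid lay below every monolayer. Of all genes, read by their brightest probe set, 17.9% were lower at that p and 20.6% had every spheroid below. ZC3H12A encodes a ribonuclease that degrades cytokine transcripts, and was read by a probe set shared with the symbol MIR6732. It read 37.7, 145 and 70.8 in monolayers and 470, 703 and 890 in spheroids, without overlap (log2 fold change 3.04 ± 0.44 SE, limma adjusted p = 0.00353).

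Windows of 250 bases before annotated starts were searched for the NF-kB consensus, a degenerate sequence of 10 letters, on both strands, with overlapping matches merged. Windows from RefSeq (GRCh38.p14) were used for 32 members, and those of RELB, NFKBIE, IKBKB, RIPK2 and IER3 were not analysed here. A match stood in at least 1 window of 13 of these 32 members (40.6%), and of 1715 of all 27305 genes with a window (6.28%). By windows, 17 of 51 held a match (33.3%), compared to 1828 of 35116 (5.21%), and the windows of MAP3K8 starts 1 and 2 share a site. The members were listed as parts or known targets of NF-kB. The choice of the list may itself raise these shares, which was not tested. A match was found in 5 of the 9 upregulated members with a window, in 1 of the 2 downregulated ones and in 7 of the 18 that were not called, so that matches were not limited to genes that changed. The sites are shown with their flanks to let them be compared, with the match in capitals, 5′ to 3′ on the strand of the gene. The upregulated members with a match were these, with NFKBIZ and MAP3K8 at more than 1 start.
NFKBIZ start 1: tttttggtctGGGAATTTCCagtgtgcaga
NFKBIZ start 2: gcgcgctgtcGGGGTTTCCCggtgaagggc
NFKBIA: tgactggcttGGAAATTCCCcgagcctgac
MAP3K8 starts 1 and 2: ggggagacgcGGAATTTCCCagcgcggggg
MAP3K8 start 3: tgggtgccccGGGGATTCCCatgcagaaat
TNFAIP3, first: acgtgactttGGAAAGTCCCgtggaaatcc
TNFAIP3, second: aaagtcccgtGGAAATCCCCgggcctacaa
TNIP1: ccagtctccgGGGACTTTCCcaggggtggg
The site of NFKBIA lies at chr14:35404821-35404830 on the - strand, those of TNFAIP3 at chr6:137867192-137867201 and chr6:137867204-137867213, and that of TNIP1 at chr5:151081067-151081076 on the - strand. Members whose brightest probe set was not called higher held matches as well, of which the following are shown (REL and CYLD had other probe sets that were called), with 1 of 2 sites for each NFKB2 start and with CD83 as the downregulated gene.
NFKB1: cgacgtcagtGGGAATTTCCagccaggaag
NFKB2 start 2, first: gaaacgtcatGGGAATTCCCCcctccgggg
NFKB2 start 3, second: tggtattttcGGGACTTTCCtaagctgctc
REL: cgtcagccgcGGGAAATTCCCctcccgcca
NFKBIB: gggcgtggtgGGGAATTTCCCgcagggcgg
CYLD: ttgacagagcGGAAAGTCCCttcggccggc
TRAF3: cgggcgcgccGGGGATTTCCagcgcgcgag
VCAM1: tccccttgaaGGGATTTCCCtccgcctctg
CD83: ctgcccgccGGGGAATCCCCCgggctggcg
The matched letters of NFKB1, not called, and of the first NFKBIZ start, the member with the smallest adjusted p, were identical, and so were those of CYLD and of the first TNFAIP3 site, and those of TNIP1 and of NFKB2 start 3. The site of NFKB1 lies at chr4:102501310-102501319, that of REL at chr2:60881527-60881537 and that of CD83 at chr6:14117696-14117707, all on the + strand. Each lies before an annotated start, and overlap with other transcripts was not tested. No match stood in the windows of IRAK2, TNFAIP2, TNFAIP8 and ICAM1 among the upregulated members, which says only that these letters are not in these 250 bases.

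**Figure D4:**
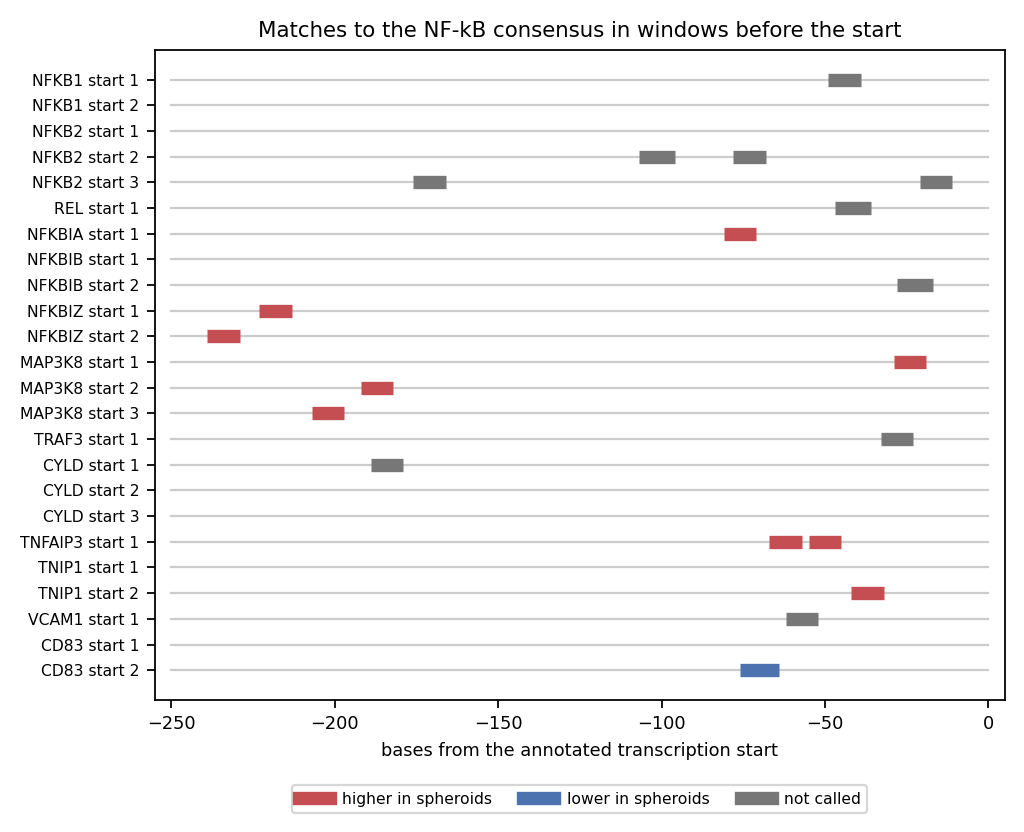
Position of each match to the NF-kB consensus (coloured block) in the 250 bases before the annotated transcription starts of the 13 members with a match, in bases from the start. Red marks members called higher in spheroids at their brightest probe set, blue lower and grey not called there, and lines without a block are starts of the same genes with no match.

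Other genes of the pathway were taken from lists of its receptors and adaptors, its ubiquitin machinery and its cytokine and survival targets. Of 25 receptors, adaptors and upstream kinases measured (27 listed), 3 were upregulated (12%) and 1 downregulated (4%), with a median log2 fold change of 0.02. The shares over all genes were 3.88% and 9.22%. Upregulated were TANK, an adaptor of the TBK1 kinase (log2 fold change 1.06, limma adjusted p = 0.00318), TNFRSF1B, the second TNF receptor (1.06, adjusted p = 0.0134), and IL1R1, the interleukin 1 receptor that signals through IRAK2 (1.82, adjusted p = 0.0286), and MALT1, a paracaspase of lymphocyte receptor signaling, was downregulated (-0.79, adjusted p = 0.0157). Of 18 genes of the ubiquitin machinery (19 listed), 0 were upregulated and 2 downregulated by limma, with 2 and 4 at an unadjusted p under 0.05, and the methods' t-test called 0 and 1. The downregulated share of 11.1% is near the 9.22% of all genes, as is the unadjusted share of 22.2% to the 17.9%. The downregulated ones were UBE2N, the conjugating enzyme that builds the signaling chains (log2 fold change -0.68, limma adjusted p = 0.022), and OTULIN, which cleaves linear chains (-0.52, adjusted p = 0.0463). In contrast, 11 of 21 cytokine and survival targets (22 listed) were upregulated and 2 downregulated, with a median of 1.91. These are 52.4% and 9.52%, against 3.88% and 9.22% of all genes. The smallest adjusted p in that list belonged to the chemokine CCL5 (log2 fold change 3.81, limma adjusted p = 1.13e-04), the hyaluronan-binding protein TNFAIP6 (5.93, adjusted p = 3.19e-04), the stress response gene GADD45B (-1.92, adjusted p = 6.16e-04) and the mitochondrial superoxide dismutase SOD2 at the 1 probe set with SOD2 as its only symbol (-2.61, adjusted p = 7.39e-04). The 4 probe sets annotated to SOD2 and SOD2-OT1 together went the other way and were all upregulated, with log2 fold changes of 2.01 to 2.92. The brightest of the 4 read 925 ± 229 in monolayers and 4833 ± 302 in spheroids, and the dimmest 20 ± 9.94 and 170 ± 87.6 (SD, n = 3). The probe set with SOD2 alone, by which SOD2 was counted as downregulated, read 153 ± 22.6 and 28.2 ± 7.56. These lists share no gene with the 39 members, and they were chosen with earlier results of these data known.

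All arrays had been scaled to a trimmed mean of 150.0, and their medians were 14.6 to 14.7 in monolayers and 15.2 to 18 in spheroids, the highest in spheroid 2. After centring, monolayer 1 was the lowest monolayer in 22 of the 34 members (40.6% of all genes) and spheroid 2 the lowest spheroid in 21 (50.6% of all genes). ACTB probe sets at the 3′ end read 1.09 to 1.11 times those at the 5′ end in monolayers and 1.11 to 1.23 times in spheroids, a ratio that rises as RNA degrades. The label as mesothelioma cells was checked on 7 mesothelial markers, of which WT1 was the brightest in spheroids and PDPN was upregulated (log2 fold change 1.10, limma adjusted p = 0.0396). THBD was not called but lay lower in every spheroid (349, 99.9 and 127 against 96.1, 86.5 and 54.3, log2 fold change -1.24, limma adjusted p = 0.109). The summed signal of the 7 markers was 8617 in monolayer 1 against 3153 and 2669 in the other monolayers, and 6447 to 9116 in spheroids. KRT5 (1845 against 130 and 79.3), KDR (422 against 13.6 and 8.35) and COL3A1 (313 against 4.67 and 6.67) also set monolayer 1 apart from the other monolayers, as the low signals of IRAK2, TNFAIP3 and CYLD did. Spheroid 1 was likewise the highest spheroid in KRT5 (910 against 267 and 290), KDR (61.2 against 14.4 and 32.9) and COL3A1 (24.8 against 1.84 and 5.18). At the brightest probe sets of IRAK2 and CYLD spheroid 1 was the lowest spheroid, and at that of TNFAIP3 the highest. Of 9 leukocyte markers measured (12 listed), 0 were called by limma and 0 by the methods' t-test, with 2 higher at an unadjusted p under 0.05. Their summed signal was 158 to 185 in monolayers and 219 to 245 in spheroids, ITGAM was the brightest, and PTPRC, which defines leukocytes, was below every array median. The 2 higher ones were PTPRC (6.7, 3.51 and 1.56 against 13.3, 13.9 and 12.1, log2 fold change 1.83) and CD14 (0.99). In 4 of the 9 every spheroid lay above every monolayer (44.4%, against 11.7% of all genes), and in 1 below (11.1%, against 20.6%). Of 10 endothelial markers, 0 were called by either test (1 higher at an unadjusted p under 0.05), the sums were 259 to 493 against 194 to 253, TIE1 was the brightest, and CDH5, TEK, ERG, CLDN5, ESAM and EMCN were below every array median. Of 10 fibroblast markers, PDGFRA was upregulated (log2 fold change 3.67, limma adjusted p = 0.00514), the sums were 2472 to 3483 against 2906 to 3390, COL1A1 was the brightest, and FAP and COL1A2 were below every array median. The part of these differences between arrays in the results on the members was not tested.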

How the data were processed

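Total RNA of 3 monolayer and 3 spheroid cultures was hybridized to 1 Affymetrix U133 Plus 2.0 array each. The deposited values are linear signal intensities that the authors made with MAS5, scaled on every array to a trimmed mean of 150.0. A further median normalization named in the methods is not seen in these values. Detection calls were not used here, so signal over background is unknown, and precision is limited by having 3 arrays per group.

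Intensities were transformed to log2, without a floor, and centred on each array median. After 62 of 54675 probe sets were left out as controls, groups were compared with limma 3.58.1 (R 4.3.3, empirical Bayes with a mean-variance trend, Benjamini-Hochberg over 54613 probe sets, threshold 0.05). The pipeline was tested on simulated data. Probe sets were named from the platform annotation, updated to RefSeq symbols, which gave 1 symbol to 41091 probe sets and several to 1801. A gene was read by its brightest probe set, that of highest mean log2 level. The members, lists and tests were chosen with earlier results of these data known.

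All members are named, with values per array for called members and for subunits and IkB genes, and up to 4 called genes of each further list with the smallest adjusted p. Values of CHUK, CALB2, KRT5, THBD, KDR and COL3A1, of further REL and CYLD probe sets and of shared probe sets were added after they were seen. Results were recomputed as deposited (uncentred), with quantile normalization, with signals raised to at least the 20th percentile, with dim probe sets removed, with limma's plain variance prior, with the methods' t-test, with a replicate block, with each array left out, and with all probe sets of a gene averaged. Counting probe sets with several symbols was added after the annotation was seen.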

Additional observations from a re-analysis of the deposited data

How the results depend on the processing

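The main counts were 10 members upregulated and 2 downregulated, and 18 and 2 of their probe sets. As deposited, without centring, 14 and 1 members and 26 and 1 probe sets were called, and after quantile normalization 15 and 1 members and 26 and 1 probe sets, in each case with the 10 upregulated members among them and MAP3K14 lost. With a floor at the 20th percentile the downregulated members and probe sets were 1 and 1. Limma without the trend called 2 members upregulated and 0 downregulated (4 and 0 probe sets), and the methods' t-test 2 and 0 (3 and 0 probe sets). When each array was left out in turn, 6 to 10 members were upregulated and 0 to 2 downregulated, and 11 to 20 and 0 to 2 probe sets were. The lowest counts came without spheroid 3, which ended the calls of ICAM1, IRAK2, TNFAIP3, TNFAIP8, CD83 and MAP3K14. Limited to probe sets above the median level, the test called 10 and 3 members, with CHUK added, and with all probe sets of a gene averaged 7 and 2, without IRAK2, NFKBIA and TNIP1. With probe sets of several symbols included, 11 and 2 members were called, with ZC3H12A added.

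Monolayers and spheroids share replicate numbers in the titles. Over all probe sets, dim ones included, deviations from the group means correlated weakly between samples of the same number (0.09089, -0.01308 and 0.02228). Samples of different numbers gave -0.07508 to 0.05456. The numbers were not taken as pairs, since the methods name no pairing. Single genes such as KRT5 were highest in replicate 1 of both groups, and whether samples of the same number share an origin was not tested. With the replicate block, 10 members were upregulated and 2 downregulated, with 18 and 2 probe sets, and all calls were shared with the analysis without it.

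Genes that were not called changed sign under some alternatives. With single arrays left out, the log2 fold change of NFKB2 ran from -0.09 (without monolayer 2) to 0.25, that of RIPK2 from -0.02 (without spheroid 3) to 0.26, that of IRAK3 from -0.27 to 0.19 (0.06 without monolayer 3), that of TRAF1 from -0.43 (without monolayer 1) to 0.29 (-0.04 without spheroid 2), and that of VCAM1 from -0.60 to 0.49. IRAK3 was at 0.09 as deposited. TNIP2 was at 0.06 as deposited and 0.09 after quantile normalization. VCAM1 was at 0.08 as deposited, 0.04 with the floor and 0.38 without monolayer 1. The cause was not tested for any of these.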
